A study of Mus musculus with 6 samples.

Results

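The genes described here encode the proteins of the mitochondrial ribosome, and they were taken from the table by symbol: every protein-coding gene whose GENCODE M21 mouse symbol begins with Mrpl or Mrps followed by a digit. The table held 77 such genes, 48 named for the large subunit (Mrpl) and 29 for the small subunit (Mrps), among 21135 genes in all. The annotation has 78, and Mrpl53 was not analysed here. Another 4 rows with such symbols are processed pseudogenes and were left out. RNA was measured in thymocytes at the DN3 stage, the CD4-negative CD8-negative precursors that carry CD25 and pass the beta-selection checkpoint, from C57BL/6 mice of 2 genotypes. The first group, called mutant here, was homozygous for mutations of GATA sites 1 and 2 in NMe, an enhancer known to act on Myc over a long distance, with n = 3 libraries. The second, called wild type, carried wild-type NMe, also with n = 3. The labels do not say whether each library came from its own animal, so the p-values cover only how much these particular libraries vary. In bulk RNA, fewer cells of a type and less RNA per cell cannot be told apart.

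The mitochondrial ribosome translates the few proteins encoded by mitochondrial DNA, all of them subunits of the respiratory chain and ATP synthase. Its RNAs come from mitochondrial DNA, while every one of its proteins is encoded in the nucleus, made in the cytosol and imported. Many of these proteins belong to families shared with bacterial ribosomes, and the others are found only in mitochondria. MYC is known to drive genes of ribosome formation and of mitochondrial function in proliferating cells. A symbol does not always give the subunit: the products of Mrps30 and Mrps18a sit in the large subunit, and the product of Mrps36 is now placed in the oxoglutarate dehydrogenase complex, so counts are also given by structure.

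Promoters of 4 members are shown because they carry the contrast described below. Mrpl12 and Mrps18b had the lowest log2 change of the large and of the small subunit, while Mrpl36 and Mrps18c both hold CACGTG, the E-box letters known to be bound by MYC with MAX, and only Mrpl36 passed the test. Each sequence is the RefSeq window on GRCm38.p6 that runs 5′ to 3′ from 250 bases before the annotated start to 50 bases after it, and capitals mark, on either strand, the E-box CACGTG, the ETS family string CCGGAAG, the NRF1 core GCGCATG, or the YY1 string AAGATGGC.
Mrpl12, chr11:120484387-120484686, plus strand: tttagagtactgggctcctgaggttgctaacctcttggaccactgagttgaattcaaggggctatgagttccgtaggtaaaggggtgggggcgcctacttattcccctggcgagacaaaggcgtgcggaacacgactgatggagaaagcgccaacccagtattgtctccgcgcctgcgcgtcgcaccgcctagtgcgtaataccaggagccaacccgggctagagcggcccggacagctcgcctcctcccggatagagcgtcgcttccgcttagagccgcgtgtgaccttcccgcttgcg
Mrps18b, chr17:35916391-35916690, minus strand: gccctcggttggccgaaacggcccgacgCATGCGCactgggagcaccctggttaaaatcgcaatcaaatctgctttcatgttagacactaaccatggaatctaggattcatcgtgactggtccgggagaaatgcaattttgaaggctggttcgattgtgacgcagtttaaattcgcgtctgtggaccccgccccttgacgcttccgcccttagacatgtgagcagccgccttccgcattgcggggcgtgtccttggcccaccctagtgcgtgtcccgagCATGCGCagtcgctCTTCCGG
Mrpl36, chr13:73330759-73331058, plus strand: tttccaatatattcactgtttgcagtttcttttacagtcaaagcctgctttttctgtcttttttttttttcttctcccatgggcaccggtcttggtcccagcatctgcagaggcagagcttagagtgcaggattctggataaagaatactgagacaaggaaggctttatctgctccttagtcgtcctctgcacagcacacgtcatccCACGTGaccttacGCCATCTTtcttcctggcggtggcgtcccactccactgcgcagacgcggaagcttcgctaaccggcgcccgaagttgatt
Mrps18c, chr5:100798509-100798808, plus strand: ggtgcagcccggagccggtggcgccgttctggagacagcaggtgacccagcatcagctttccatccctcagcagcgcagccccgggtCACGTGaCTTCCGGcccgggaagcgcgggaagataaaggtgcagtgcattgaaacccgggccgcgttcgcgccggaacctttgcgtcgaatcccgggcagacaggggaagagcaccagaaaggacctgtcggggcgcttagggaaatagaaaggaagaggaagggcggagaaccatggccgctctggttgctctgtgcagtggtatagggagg
The Mrpl12 window held none of the 4 letter strings. The Mrps18b window held GCGCATG on the reverse strand at -222 and at 29, and CCGGAAG at 43, counted from the start. The Mrpl36 window held CACGTG at -43 and AAGATGGC at -30, and the Mrps18c window held CACGTG at -163 beside CCGGAAG at -156. RefSeq and GENCODE place some starts differently: the Mrpl36 window lies inside the GENCODE gene (chr13:73328513-73332178), and the Mrps18b window lies just upstream of the GENCODE gene.

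Mitochondrial ribosomal protein mRNAs were lower in mutant than in wild-type DN3 thymocytes. Mutant means lay between 52.0 and 95.8% of wild-type means, with a median over the members of 78.8%. The summed level of the 77 genes, in normalised reads (the authors' counts divided by a size factor for each library), was 219457, 187863 and 184859 in mutant libraries, against 239851, 264342 and 257682 in wild-type libraries. The mean was 197393 ± 19167 in mutant and 253958 ± 12663 in wild type (SD, n = 3 each), a ratio of 0.777, and the groups did not overlap. As a share of all normalised reads the family took 0.494, 0.429 and 0.434% in mutant libraries, against 0.534, 0.579 and 0.564% in wild-type libraries.

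Every member was expressed well above the minimum level for testing (a mean of 10 normalised reads): mean levels ran from 582 to 6256 normalised reads. By limma on log2(value + 1), with Benjamini-Hochberg adjustment over all 17815 tested genes and a threshold of 0.05, 34 of the 77 members fell in the mutant, 0 rose and 43 did not pass. Across all tested genes 18.8% were called, 10.9% lower and 7.94% higher, and among the 6976 genes with mean levels in the members' range 13.3% were called lower, while 44.2% of the members were. The median log2 change of the members was -0.35, against 0.03 for all tested genes. All 77 fitted changes lay below 0, from -0.94 to -0.07, where 47.9% of all tested genes lay below 0. This held under library scaling to equal totals and by TMM, but 6 members that did not pass were at 0.01 to 0.12 after a correction for transcript length, GC content and level. The mutant range lay below the wild-type range in 51 members and above it in 0, against 20.3% and 18.0% of all tested genes. Leaving out mutant replicate 2 or wild-type replicate 2 left 17 members called, and leaving out wild-type replicate 3 left 22, where all tested genes called lower were 7.82, 6.05 and 7.52%.

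**Figure D1:**
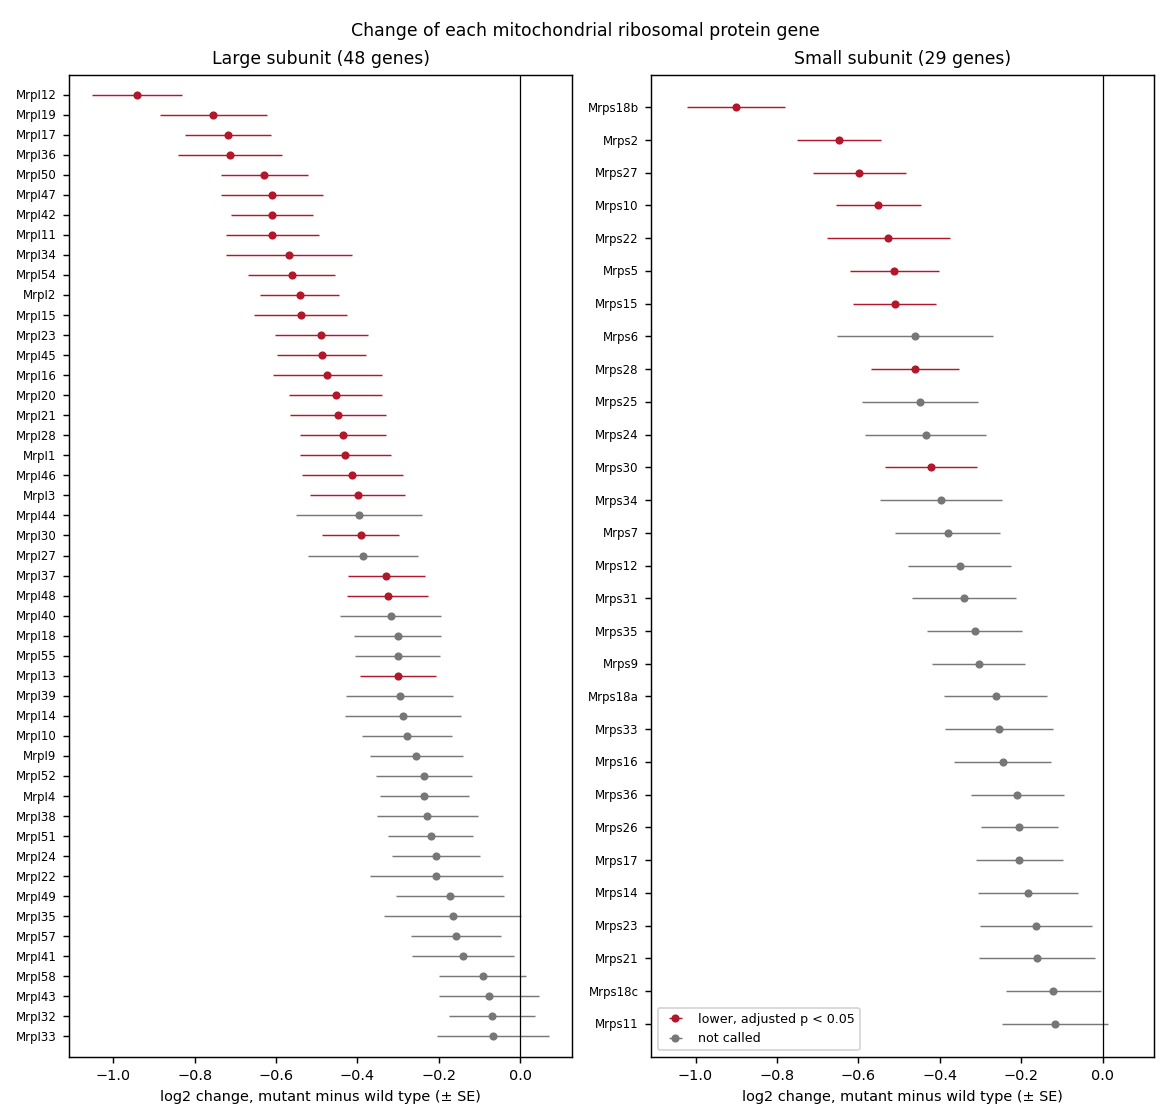
Fitted log2 change, mutant minus wild type, of each of the 48 large-subunit (left) and 29 small-subunit genes (right), with standard errors as bars and genes ordered by change. All points lie left of 0; the 34 red genes passed the adjusted p threshold, 25 large and 9 small, and the grey genes did not.

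In the large subunit, 25 of 48 genes fell and 0 rose, with a median log2 change of -0.36. Mrpl12 encodes the protein of the flexible stalk that recruits translation factors to the ribosome, and in human cells it is also known to bind the mitochondrial RNA polymerase. Mrpl12 (chr11:120484613-120489065, GRCm38, plus strand) had 1532, 1389 and 1465 normalised reads in mutant libraries, against 2592, 2868 and 2981 in wild-type libraries. The 3 mutant libraries lay close together and far below all 3 wild-type libraries. The mutant mean was 52.0% of the wild-type mean, with a log2 change of -0.94 ± 0.11 (SE, n = 3 each; limma adjusted p = 0.00057), the lowest of the family. It shares 200 bp of exon with Gm16755, and since the library kits do not mark strand, reads there cannot be assigned to one of them.

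The next 4 genes of the large subunit were Mrpl19, Mrpl17 and Mrpl36, of bacterial families, and Mrpl50, found only in mitochondria. Mrpl19 had 2042, 1824 and 1571 normalised reads in mutant libraries, against 2704, 3219 and 3227 in wild-type libraries (log2 change -0.75, adjusted p = 0.0037). Mrpl19 shares 1962 bp of exon with Gcfc2, so its value is uncertain. Mrpl17 had 2975, 2469 and 2829 in mutant libraries, against 4394, 4558 and 4619 in wild-type libraries (log2 change -0.72, adjusted p = 0.0017). Mrpl36, a small zinc-binding protein, had 3467, 2618 and 2572 in mutant libraries, against 4689, 4862 and 4508 in wild-type libraries (log2 change -0.71, adjusted p = 0.0045). Mutant replicate 1 stood well above the other mutant libraries in Mrpl36 and still below every wild-type library. Mrpl50 had 2233, 1887 and 2014 in mutant libraries, against 3080, 3163 and 3225 in wild-type libraries (log2 change -0.63, adjusted p = 0.0033).

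Other large-subunit genes that fell, named after their values were seen, lie in several regions of the ribosome. Mrpl11, whose product forms the base of the stalk, had 1874, 1604 and 1604 normalised reads in mutant libraries, against 2416, 2601 and 2725 in wild-type libraries (log2 change -0.61). Mrpl2, whose bacterial relative lies beside the peptidyl transferase centre, had 2719, 2581 and 2576 in mutant libraries, against 3657, 3936 and 3879 in wild-type libraries (log2 change -0.54). Both sets of mutant libraries lay below all wild-type libraries. Mrpl10, which anchors Mrpl12 in the stalk, did not pass the test, with a log2 change of -0.28 (adjusted p = 0.11) and means of 2133 ± 189 in mutant and 2581 ± 123 normalised reads in wild type (SD, n = 3 each). The remaining called genes of the large subunit were Mrpl47, Mrpl42, Mrpl34, Mrpl54, Mrpl15, Mrpl23, Mrpl45, Mrpl16, Mrpl20, Mrpl21, Mrpl28, Mrpl1, Mrpl46, Mrpl3, Mrpl30, Mrpl37, Mrpl48 and Mrpl13, with log2 changes from -0.61 in Mrpl47 to -0.30 in Mrpl13. The correction for length, GC and level left Mrpl37 at -0.21 and not called. Mrpl23 and Mrpl48 have processed pseudogenes that could take some of their reads, with 126 to 227 normalised reads in a library for Mrpl23-ps1 and 22.2 to 36.1 for Mrpl48-ps.

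Per kb of annotated exon, the highest large-subunit genes were Mrpl18 (4066 normalised reads per kb), Mrpl34 (3989) and Mrpl28 (3835). This order depends on annotated exon length, which was 607 bp in Mrpl34 and 8487 bp in Mrpl15. Without division by length Mrpl42 was highest, with means of 4958 in mutant and 7553 in wild type. Mrpl34, of the bacterial L34 family, had 2403, 1912 and 1578 normalised reads in mutant libraries, against 2703, 3182 and 2752 in wild-type libraries, and fell by 0.57 on the log2 scale (adjusted p = 0.029). This call held in 1 of the 6 fits that leave out a library, that without mutant replicate 1, and the log2 change was -0.31 and not called after the correction for length, GC and level. Mrpl28 had 4978, 4225 and 4304 in mutant libraries, against 5648, 6434 and 6169 in wild-type libraries, and fell by 0.44 on the log2 scale (adjusted p = 0.018), a call lost without mutant replicate 2 or without wild-type replicate 2. Mrpl18 had 5742, 4618 and 4945 in mutant libraries, against 6105, 6575 and 6117 in wild-type libraries. The groups of Mrpl18 did not overlap, but with a log2 change of -0.30 it did not pass (adjusted p = 0.077).

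At the other end, the large-subunit genes closest to 0 were Mrpl33, Mrpl32 and Mrpl43. Mrpl32, whose product matures only after cleavage by the m-AAA protease in yeast and mouse, had 3411, 2896 and 2880 normalised reads in mutant libraries, against 3161, 3254 and 3194 in wild-type libraries. The highest library for Mrpl32 was mutant replicate 1, and the other mutant libraries were the lowest. Its log2 change was -0.07 with a 95% interval from -0.31 to 0.17. Mrpl33 had a log2 change of -0.07 (interval -0.38 to 0.24) and Mrpl43 one of -0.08 (interval -0.35 to 0.20). Mrpl58 and Mrpl41, whose products have known roles of their own, were also not called. Mrpl58, a peptidyl-tRNA hydrolase that frees stalled ribosomes, had 3955, 3277 and 3530 in mutant libraries, against 3618, 3990 and 3839 in wild-type libraries (log2 change -0.09, adjusted p = 0.59). Mrpl41, near the exit of the peptide tunnel, averaged 2549 ± 257 in mutant and 2813 ± 322 normalised reads in wild type (SD, n = 3 each; limma log2 change -0.14, adjusted p = 0.46).

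**Figure D2:**
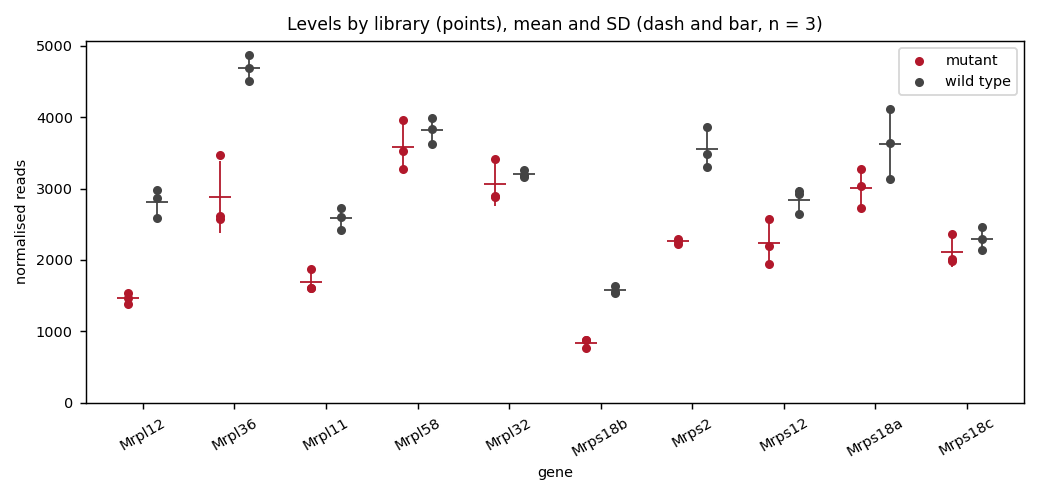
Normalised reads of 10 members in each library (points), with mean (dash) and SD (bar, n = 3), mutant left of wild type. For Mrpl12, Mrpl36, Mrpl11, Mrps18b, Mrps2 and Mrps12 all mutant points lie below all wild-type points; for Mrpl58, Mrpl32, Mrps18a and Mrps18c the groups overlap.

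In the small subunit, 9 of 29 genes fell and 0 rose, with a median log2 change of -0.35. Mrps18b encodes 1 of 3 relatives of the bacterial S18 protein, each in its own place in the ribosome. Mrps18b (chr17:35910379-35916389, minus strand) had 875, 774 and 886 normalised reads in mutant libraries, against 1542, 1556 and 1630 in wild-type libraries. The mutant mean was 53.6% of the wild-type mean, with a log2 change of -0.90 ± 0.12 (SE, n = 3 each; limma adjusted p = 0.00099), and the groups lay far apart. It shares 638 bp of exon with Gm16279. The other 2 relatives did not pass the test. Mrps18a had 3269, 3034 and 2732 in mutant libraries, against 3130, 4115 and 3631 in wild-type libraries (log2 change -0.26, interval -0.54 to 0.02). Mrps18c (chr5:100798627-100804471, plus strand) had 2363, 2011 and 1979 in mutant libraries, against 2143, 2458 and 2296 in wild-type libraries (log2 change -0.12, interval -0.38 to 0.14). The groups overlapped in both, and the difference between the 3 relatives was not tested.

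Mrps2, of the bacterial S2 family, had 2290, 2264 and 2228 normalised reads in mutant libraries, against 3300, 3482 and 3865 in wild-type libraries (log2 change -0.65, adjusted p = 0.0025). The mutant libraries of Mrps2 were almost level. Mrps27, a pentatricopeptide repeat protein found only in mitochondria, had 1664, 1449 and 1439 in mutant libraries, against 2185, 2268 and 2426 in wild-type libraries (log2 change -0.60, adjusted p = 0.0059). Mrps10 had 2284, 2130 and 2030 in mutant libraries, against 2972, 3263 and 3201 in wild-type libraries (log2 change -0.55, adjusted p = 0.0058). Mrps22, which is mutated in a human mitochondrial disease, had 1656, 1289 and 1420 in mutant libraries, against 1759, 2091 and 2466 in wild-type libraries (log2 change -0.53, adjusted p = 0.036), a call lost without mutant replicate 2 or 3 and without wild-type replicate 2 or 3. The gap between the groups was wide in Mrps27 and Mrps10 and narrow in Mrps22. The other 4 called were Mrps5, Mrps15, Mrps28 and Mrps30, with log2 changes of -0.51, -0.51, -0.46 and -0.42. Mrps28 was at -0.20 and not called after the correction for length, GC and level, and among the fits that leave out a library Mrps30 kept its call only without mutant replicate 3.

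Mrps21 (3935 normalised reads per kb), Mrps28 (3690) and Mrps12 (2443) were the highest small-subunit genes per kb of annotated exon. Without division by length Mrps14 was highest, with means of 5648 in mutant and 6353 in wild type. Mrps12 lies at the decoding centre, where codon and tRNA are matched. It had 2577, 2202 and 1940 normalised reads in mutant libraries, against 2641, 2964 and 2917 in wild-type libraries. The groups of Mrps12 did not overlap, mutant replicate 1 lying just under wild-type replicate 1, and its log2 change of -0.35 did not pass (adjusted p = 0.081). Mrps21 had a log2 change of -0.16 and Mrps11 of -0.12, and neither passed (adjusted p = 0.46 and 0.57). Mrps30, of the large subunit by structure, averaged 2382 ± 279 in mutant and 3178 ± 55.2 normalised reads in wild type (SD, n = 3 each), while Mrps36 averaged 2288 ± 259 in mutant and 2634 ± 36.0 in wild type and did not pass (limma adjusted p = 0.23).

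The subunits were close in size of change, and the share of genes called was higher in the large subunit by an amount that depended on the libraries used. The share that fell was 52.1% of large-subunit and 31.0% of small-subunit genes, or 26 of 50 and 8 of 26 by structure, beside medians of -0.36 and -0.35 by symbol and -0.36 and -0.37 by structure. The median standard error was 0.114 in large-subunit and 0.120 in small-subunit genes. Adjusted p lay between 0.05 and 0.10 in 3 large-subunit and 8 small-subunit genes. The summed level of the large subunit was 144849, 124119 and 123403 normalised reads in mutant libraries, against 159889, 176427 and 171686 in wild-type libraries. For the small subunit it was 74608, 63744 and 61456 in mutant libraries, against 79962, 87915 and 85996 in wild-type libraries. The large-to-small ratio of these sums was 1.94, 1.95 and 2.01 in mutant libraries, against 2.00, 2.01 and 2.00 in wild-type libraries and the groups overlapped. Genes are not replicates, so the difference in shares has no test. The shares were 54.2% of large-subunit and 51.7% of small-subunit genes without mutant replicate 1, and 22.9 and 20.7% without mutant replicate 2 or without wild-type replicate 2. They were 33.3% of large-subunit and 31.0% of small-subunit genes without wild-type replicate 1, 31.2 and 27.6% without mutant replicate 3, and 31.2 and 24.1% without wild-type replicate 3. The difference in medians ran from -0.04 to 0.04 over the 20 settings compared.

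Sorted by origin, 23 of 46 genes classed in bacterial families fell, with a median log2 change of -0.40. Of 30 genes classed as found only in mitochondria, 11 fell, with a median of -0.32. The second class includes Mrps18a and Mrps18b, although their products are relatives of the bacterial S18 protein. By structure, 18 of 30 large-subunit and 5 of 16 small-subunit genes of bacterial families fell. Of the genes classed as found only in mitochondria, 8 of 20 in the large and 3 of 10 in the small subunit fell, Mrps18b among the latter. Among the 32 genes that share exon with another gene 12 fell, and among the 45 that share none 22 fell.

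**Figure D3:**
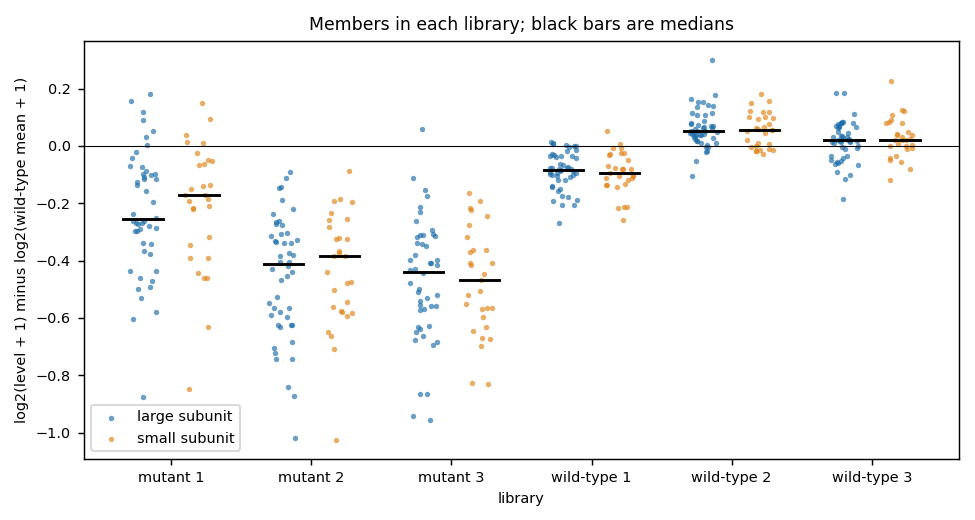
Level of each member in each library as log2(level + 1) minus log2(wild-type mean + 1), large subunit in blue and small subunit in orange, with medians as black bars. The medians over all members were -0.19, -0.40 and -0.44 in mutant libraries 1 to 3, and -0.08, 0.06 and 0.02 in wild-type libraries 1 to 3.

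Libraries of one genotype differed from each other in the whole family. The median member lay at -0.19 in mutant replicate 1, -0.40 in mutant replicate 2 and -0.44 in mutant replicate 3, on the log2 scale relative to the wild-type mean. Mutant replicate 1 had the highest of the 3 mutant values in 72 of 77 members. It reached into the wild-type range in all 26 members whose groups overlapped, whereas mutant replicate 2 did so in 3 and mutant replicate 3 in 1. Among wild-type libraries, replicate 1 was lowest in 59 members and replicate 2 highest in 48. Without mutant replicate 1, 41 members were called lower, 26 large and 15 small, where 1784 of 17811 tested genes were.

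The libraries held 38.6 to 51.3 M reads over the listed genes, and the main axis of variation, with 42.0% of the variance, separated the genotypes. Wild-type replicate 3 stood apart from the other wild-type libraries on the second axis (17.1% of the variance). Myc, the known target of the mutated enhancer, had 5562, 4612 and 6165 normalised reads in mutant libraries, against 18041, 19223 and 20196 in wild-type libraries (limma log2 change -1.82, adjusted p = 4.2e-05). DN3 markers (9 of 9 measured) summed to 454522 to 562798 in mutant and 339897 to 370845 in wild type, most of it Cd3g, Lck and Il2ra. Of these markers 6 rose, among them Dtx1 (log2 change 1.91) and Il2ra (0.85), Rag1 fell (-0.58) and 2 did not pass. Summed levels of other marker lists also differed without overlap. Gamma-delta T markers (4 of 4 measured) summed to 19685 to 25041 in mutant and 11119 to 14317 in wild type. NK or innate markers (2 of 4, nearly all Nkg7) summed to 9193 to 18048 in mutant and 4415 to 7253 in wild type. Double-positive thymocyte markers (5 of 5) summed to 7702 to 8938 in mutant and 5103 to 6332 in wild type, most of it Cd1d1. The defining markers Cd4 and Cd8a were low and ran the other way without overlap, Cd4 averaging 33.7 ± 8.13 in mutant and 65.6 ± 17.4 in wild type and Cd8a 25.6 ± 6.38 in mutant and 45.7 ± 11.5 in wild type (SD, n = 3 each), and neither passed. Earlier thymocyte markers (5 of 5) summed to 2094 to 2911 in mutant and 3071 to 3935 in wild type, most of it Kit, which did not pass. Cd44 fell (log2 change -1.45), and Lyl1 was higher without overlap but did not pass. Ighm had 10523, 12303 and 10745 reads in mutant libraries, against 16317, 15434 and 18447 in wild-type libraries, and fell (log2 change -0.58, adjusted p = 0.0044). Myeloid (6 of 6) and stromal sums (3 of 6) overlapped between genotypes, while Pecam1 of the stromal list rose (log2 change 0.41, adjusted p = 0.032). The erythroid sum (3 of 4) was 39.7 to 63.3 in mutant libraries and 61.5, 6272 and 24.9 in wild-type libraries, and wild-type replicate 2 held 2730 reads of Hba-a1 and 3523 of Hbb-bs. The part of these markers in the results was not tested; without wild-type replicate 2, the median log2 change of the members was -0.32.

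Some other genes of mitochondrial translation also fell, though most members of these lists did not pass. None of the 13 mRNAs and 2 rRNAs of mitochondrial DNA that were examined was called. The share of all tested genes called lower, 10.9%, applies to each count here. Of 5 mitoribosome proteins with other symbols 3 fell, with a median log2 change of -0.40: Dap3, a GTP-binding protein of the small subunit, Ptcd3 and Chchd1. Chchd1 had 2937, 2226 and 2345 normalised reads in mutant libraries, against 3436, 3582 and 3360 in wild-type libraries (log2 change -0.48). Of 29 assembly factors 8 fell and 0 rose, with a median of -0.17, and 8 of the 29 had a fitted change above 0. Noa1, a GTPase of small-subunit assembly, had 2465, 2183 and 2076 in mutant libraries, against 3741, 4645 and 3973 in wild-type libraries (log2 change -0.88, adjusted p = 0.0012). Rcc1l, which acts in large-subunit assembly, had 1543, 1459 and 1384 in mutant libraries, against 2460, 2499 and 2438 in wild-type libraries (log2 change -0.76, adjusted p = 0.0013). In both genes the groups lay far apart. Rbfa, which acts on the small-subunit RNA, had a log2 change of -0.56 (adjusted p = 0.0046).

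Of 16 translation factors and regulators 4 fell and 0 rose, with a median of -0.33. Lrpprc, which stabilises mitochondrial mRNAs, had 3133, 3553 and 3600 normalised reads in mutant libraries, against 5448, 5936 and 6583 in wild-type libraries (log2 change -0.80, adjusted p = 0.0011). The elongation factor genes Gfm1, Tsfm and Tufm fell by 0.63, 0.57 and 0.51 on the log2 scale. Of 9 genes of mitochondrial transcription and replication 2 fell, the helicase gene Twnk (log2 change -0.66) and the initiation factor gene Tfb2m (-0.39). Polrmt, the polymerase to which MRPL12 binds, had a log2 change of -0.27 and did not pass (adjusted p = 0.083). Of the 13 proteins encoded by mitochondrial DNA 0 passed in either direction, with a median of -0.06, and 7 lay below 0 and 6 above. Their log2 changes ran from -0.30 in mt-Co1 (limma adjusted p = 0.071) to 0.40 in mt-Nd2 (limma adjusted p = 0.060). The groups did not overlap in mt-Co1, with the mutant lower, and overlapped in the other 12. The summed level of these 13 was 350660, 346236 and 308290 in mutant libraries, against 394852, 331270 and 332057 in wild-type libraries, and the groups overlapped. Neither mitochondrial rRNA was called: mt-Rnr1 had a log2 change of 0.22 and mt-Rnr2 of 0.09.

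**Figure D4:**
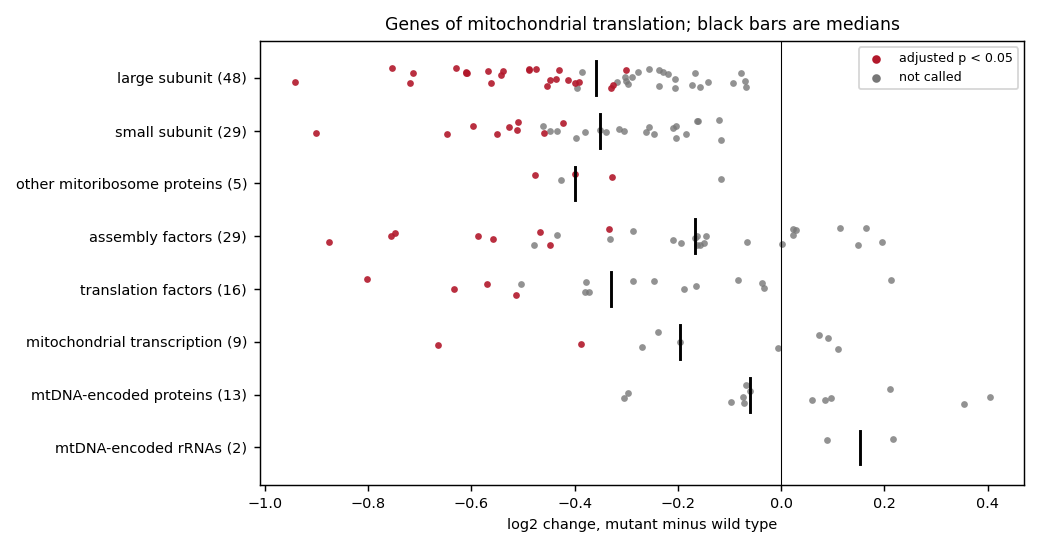
Fitted log2 change, mutant minus wild type, of each gene (points) in the ribosomal protein sets and in 6 related lists, with list medians as black bars and list sizes in parentheses. Medians lie at -0.36 and -0.35 for the large and small subunits, -0.17 for assembly factors and -0.06 for proteins encoded by mitochondrial DNA, where no gene passed the threshold.

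The members are spread over 17 chromosomes. Only Mrpl13 lies on chromosome 15 with Myc, 6.43 Mb from it. Mrpl13 had 3917, 3689 and 3747 normalised reads in mutant libraries, against 4454, 4825 and 4713 in wild-type libraries (log2 change -0.30, adjusted p = 0.049), a change smaller than the family's median, and its call was lost in every fit that leaves out a library. Chromosome 17 holds 8 members, of which 4 fell, where 44.2% of all members and 10.9% of all tested genes were called lower. H2-Q1, 585 kb from Mrps18b, had 2952, 2965 and 3494 in mutant libraries, against 76.3, 44.9 and 2692 in wild-type libraries, so wild-type replicate 3 went with the mutants there. In Mrps18b wild-type replicate 3 was the highest library, and a link between H2-Q1 and Mrps18b was not tested.

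Many members start close to a neighbour on the other strand. A protein-coding neighbour transcribed in the opposite direction started within 1000 bp in 33 of 77 members (42.9%), against 2125 of 12538 tested protein-coding genes (16.9%). Of the 33 neighbours, 8 fell, 1 rose and 24 did not pass. Across all tested genes 10.9% were called lower and 7.94% higher. Among the 33 neighbours 2 are themselves members, Mrpl46, which is among those that fell, and Mrps11. The median log2 change of the neighbours was -0.23, and that of the members beside them was -0.35. Mrps18b and Ppp1r10 start 45 bp apart. Ppp1r10 had 3459, 3935 and 3622 normalised reads in mutant libraries, against 3158, 3324 and 2663 in wild-type libraries (log2 change 0.27, adjusted p = 0.13), so its mutant libraries were all higher while those of Mrps18b were all lower. Beside Mrpl43, the neighbour rather than the member was called. Mrpl43 and its neighbour Twnk share 507 bp of exon, and reads there cannot be assigned to one of them. Twnk had 1839, 2155 and 1893 in mutant libraries, against 3249, 3081 and 2983 in wild-type libraries, while the groups overlapped in Mrpl43. Mrpl46 and Mrps11 are neighbours of each other and share 173 bp of exon. Mrpl46 fell (log2 change -0.41, adjusted p = 0.043), a call that held without mutant replicate 1 and in no other fit that leaves out a library, and Mrps11, at -0.12, did not pass.

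**Figure D5:**
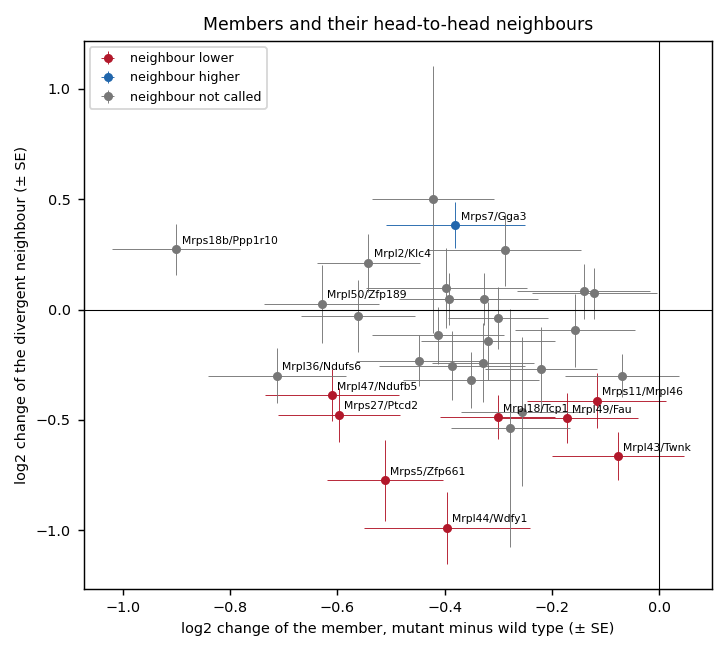
Log2 change of each of 33 members (horizontal) against that of its head-to-head neighbour (vertical), mutant minus wild type, with standard errors as bars; neighbours in red fell, the one in blue rose and those in grey did not pass. Members all lie left of 0, while neighbours lie on both sides of 0, with Ppp1r10 at 0.27 above Mrps18b and Twnk at -0.66 below Mrpl43.

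RefSeq windows of the kind printed above were found for 68 members, and the same letters were searched on both strands in all of them. CACGTG occurred in 5 members (7.35%), against 11.6% of the 9879 tested protein-coding genes with a window. These were Mrpl36, Mrpl2, Mrpl20 and Mrpl37, which fell, and Mrps18c, which did not pass. CCGGAAG occurred in 25 members (36.8%), against 20.2% of those genes, and AAGATGGC in 12 (17.6%), against 5.30%. GCGCATG occurred in 8 (11.8%), against 8.06%. Counted by window, CACGTG occurred in 7 of 74 member windows (9.46%), against 7.15% of all 32851 windows, which include those of untested genes. Of these 7 windows, 3 belong to Mrpl2. The direction for CACGTG thus differed with the way of counting. By window, CCGGAAG occurred in 33.8% of member windows against 8.86%, AAGATGGC in 16.2% against 2.75%, and GCGCATG in 10.8% against 3.91%. The median log2 change was -0.26 in members with CCGGAAG and -0.41 in members without it, with 8 of 25 and 21 of 43 called lower. For CACGTG it was -0.45 with and -0.34 without, with 4 of 5 and 25 of 63 called lower. For GCGCATG it was -0.27 and -0.38 (2 of 8 and 27 of 60), and for AAGATGGC -0.34 and -0.36 (4 of 12 and 25 of 56). These splits were not tested. A match describes letters in a window and is not a bound site.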

How the data were processed

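RNA of DN3 thymocytes from 3 mutant and 3 wild-type libraries was extracted as total RNA, turned into full-length cDNA with SMART-Seq v4 and sequenced from Nextera XT libraries, per the labels' protocols. Neither kit marks strand. The authors deposited 1 table of signal values per gene, and in each library these are whole read counts divided by 1 size factor: 100% of 126810 deposited values became whole within 0.1 reads. The submitters' processing notes name STAR 2.5.3, featureCounts, DESeq2 1.20.0 and the builds mm10 and GRCm38; the annotation release is not given in the sources used here. Symbols and positions came from GENCODE M21 (21100 of 21135 gene IDs matched), and promoters from RefSeq (68 of 77 members). The table held 0 columns of other samples.

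Changes were tested with limma 3.58.1 (R 4.3.3; lmFit, then eBayes with trend) on log2(value + 1), in genes with a mean of at least 10, as mutant minus wild type over all 6 libraries, with Benjamini-Hochberg adjustment over 17815 genes. A fold on this scale understates changes of low genes. edgeR 4.0.16 and DESeq2 1.42.0 on the recovered reads were alternatives, beside other scalings, pseudocounts, filters, library weights, a replicate block, a correction for transcript length, GC and level, and leaving out each library. The scripts were tested on simulated data. Replicates differed by more than sampling noise, so none was a copy of another. Levels per kb use the union of annotated exons.

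The members and lists were chosen with earlier results of these data known. Named in each subunit were the 5 called members with the lowest log2 change, any that rose, the 3 highest per kb, the 3 nearest 0 and 9 members with roles of their own, and in each pathway list up to 3 called genes with the smallest p; other genes named were chosen after their values were seen. The B cell marker list is not reported here.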

Additional observations from a re-analysis of the deposited data

How the results depend on the processing

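Counts of members called lower varied with the libraries used, and 0 members were called higher in any fit. Over the 6 fits that leave out 1 library, the count of members called lower ran from 17 to 41 of 77, in the large subunit from 11 to 26 and in the small subunit from 6 to 15. Of the 34 called members, 17 were called in each of these fits and under every other alternative run: Mrpl12, Mrpl19, Mrpl17, Mrpl36, Mrpl50, Mrpl47, Mrpl42, Mrpl11, Mrpl54, Mrpl2, Mrpl15, Mrps18b, Mrps2, Mrps27, Mrps10, Mrps5 and Mrps15. The other 17 lost their call in at least 1 fit. With library weights the small subunit had 16 members called lower, where 13.0% of all tested genes were. After the correction for length, GC and level, alone and with the replicate block, the log2 changes of Mrpl22, Mrpl41, Mrpl43, Mrpl58, Mrps18c and Mrps21 turned to 0.011, 0.10, 0.031, 0.013, 0.026 and 0.12. With 1 library left out, the log2 change of Mrpl33 ran from -0.19 to 0.013 and was also above 0, at 0.0026, when mutant replicate 3 was dropped, and that of Mrpl43 ran from -0.18 to 0.015. None of these 7 genes was called in either direction in the analysis reported, and the cause was not tested. With equal library totals 26 members were called lower, and the split over all genes was 1648 lower and 1828 higher, beside 1938 lower and 1414 higher as reported. Replicate numbers showed no sign of pairing: same-number libraries of the 2 genotypes had correlations of -0.02, -0.07 and -0.01 in their deviations. Libraries with different numbers had correlations from -0.06 to 0.10. A check on 3 libraries a group cannot exclude pairing. With the replicate block 27 members were called lower (19 large, 8 small). Of all 17815 tested genes, 1727 were called lower with the block, against 1938 as reported. edgeR called 33 members lower, where 10.2% of all tested genes were, and DESeq2 38, where 12.8% were. At 38.6 to 51.3 M reads a library, no member had fewer than 421 reads in any library.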
